A study of Malus hupehensis with 9 samples.

Results

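Phloem messenger RNA of the columnar hybrid QZ1 was set against that of its mother species at bud break, using the 6 libraries of these rootstocks out of 9 in the series. QZ1 came from a cross of Malus hupehensis Rehd., as the mother, with the columnar line CO (Malus × domestica Borkh.) as the father, and grows in columnar form. The comparison group, labelled PYTC and WT, was Malus hupehensis itself. The remaining 3 libraries came from A1d, a mutant of WT with partial insensitivity to gibberellin. Only the alternative with all 9 libraries put them in the fit. Elsewhere their values are given only beside those of QZ1 and WT. All libraries came from phloem at bud break, with 3 replicates per rootstock. The design text speaks of tree replicates, which may mean separate trees or may be a misspelt number. It is thus not certain that replicates were separate trees, and p-values cover only how far these libraries differ, a spread that may be technical. QZ1 carries chromosomes from a father of which no library was analysed here, so columnar growth and all other paternal inheritance cannot be told apart in this comparison.

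Columnar apple trees have a thick upright stem with short internodes and fruiting spurs in place of long side branches. The habit is inherited as a dominant trait of the Co locus, where a retrotransposon insertion goes with raised expression of a nearby dioxygenase gene in columnar apple, and ectopic expression of that gene lowers active gibberellin. Phloem carries sugars, proteins and RNA through the bark, and at bud break it conducts stored carbon to the opening buds. Malus hupehensis is an Asian crab apple used as a rootstock that sets much of its seed by apomixis, without fertilisation.

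The deposited values were FPKM, which relate the reads of a gene to its length and to the library total. The files do not pair the gene identifiers with names, so no function can be given for any gene here, and the phloem label could not be checked against marker genes. The identifiers have the form used for the apple genome GDDH13, in which the leading digits after MD give the chromosome. This reading comes from their form and is not stated in the file. Library totals, recovered from the steps of the FPKM values, were 17853477 to 17970988 reads in QZ1 and 16615625 to 16860711 in WT. WT replicate 1 stood apart within its group. Across the 25565 genes tested, its Pearson r with WT replicates 2 and 3 was 0.911 and 0.905 on the log2(FPKM + 1) scale, against 0.956 between those libraries and 0.933 to 0.954 within QZ1. With every QZ1 library its r was 0.851 to 0.853, against 0.788 to 0.818 for WT replicates 2 and 3. The median SD of a gene was 0.293 log2 units over the 3 WT libraries, 0.163 over WT replicates 2 and 3, and 0.209 over the 3 QZ1 libraries. Among the A1d libraries, replicate 1 had 18107 genes at 0, against 7183 to 9029 in every other library of the series. It also had the lowest total, 15684510 reads, though WT replicate 2, with 16615625 reads, had 7273 genes at 0. The cause of the many zeros in A1d replicate 1 was not tested, and a value of 0 there may not mean absence from A1d.

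Of the 25565 genes with at least 1 FPKM in at least 3 of the 6 libraries, 2630 were higher in QZ1 than in WT and 2873 were lower. These are 10.3% and 11.2% of the genes tested, or 21.5% together, called by limma where the p after Benjamini-Hochberg adjustment was under 0.05. The changes were mostly moderate in size. Among the higher genes the median log2 fold change was 1.27, on the log2(FPKM + 1) scale, and 67.5% exceeded a log2 fold change of 1. Among the lower genes the median absolute log2 fold change was 1.26, and 67.9% were past that size. At the far end, 45 genes were higher and 34 lower by at least 4 log2 units. Of those 45 genes 15 had no read in any WT library, whereas 2 of the 34 had none in any QZ1 library. All 2630 higher genes and 2872 of the 2873 lower genes had QZ1 and WT values that did not overlap. With 3 libraries per group a call nearly requires this, so it is no further support. Over all genes tested, 19.2% did not overlap with QZ1 above WT and 22.1% with QZ1 below it. When the test was made against a 1.5-fold change in place of no change, 872 genes (3.41%) were higher and 579 (2.26%) lower. In bulk tissue, a change in the number of cells of a type and a change in RNA per cell cannot be told apart.

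**Figure D1:**
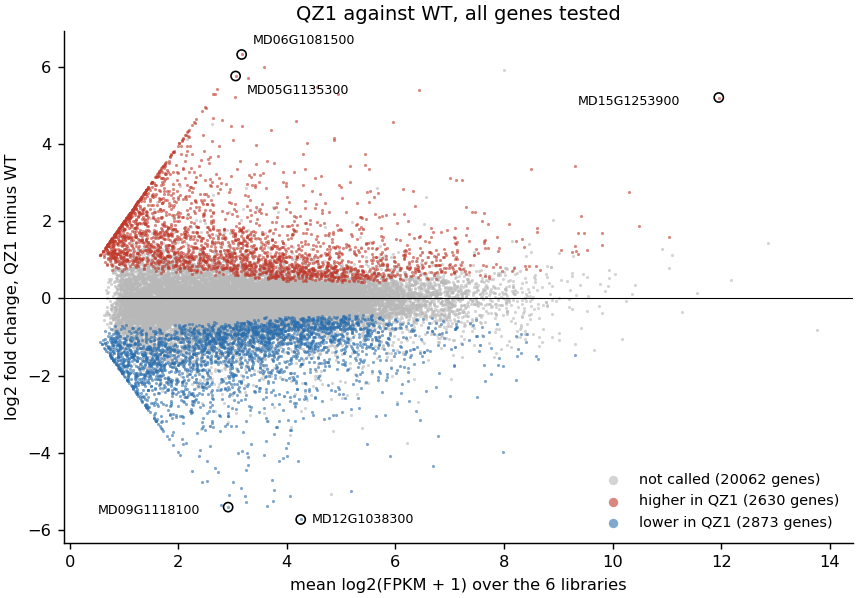
Log2 fold change of QZ1 against WT for each of the 25565 genes tested, on the vertical axis, against the mean log2(FPKM + 1) of the 6 libraries on the horizontal axis. Red points are the 2630 genes called higher in QZ1, blue points the 2873 called lower and grey points those not called; circles mark 5 genes described in the text, of which MD15G1253900 lies far to the right, at high abundance.

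The number of calls rested on WT replicate 1 and on the number of libraries. Without WT replicate 1, the calls numbered 3432 higher and 5084 lower, together 8516 (33.3%), and 5261 of the 5503 calls were kept. Without WT replicate 2 the total was 3014, without WT replicate 3 it was 3012, and without QZ1 replicate 1, 2 and 3 it was 2732, 3721 and 2574. In each of these 6 fits, 0 of the 5503 genes were called in the opposite direction. Leaving out a library could not turn the direction of genes whose QZ1 and WT values did not overlap. These were all 2630 higher and 2872 of the 2873 lower genes. In all 6 fits 1241 higher and 948 lower genes were called, 39.8% of the total. WT replicate 1 was often the WT library nearest to QZ1 at the genes lower in QZ1. Of those 2873 genes, 61.8% had their value closest to QZ1 in WT replicate 1, 21.2% in WT replicate 2 and 17% in WT replicate 3. At the higher genes these shares were 36.4%, 25.9% and 29.1%. On a scale where the WT mean is 0 and the QZ1 mean is 1, WT replicate 1 lay at a median of 0.16 over the lower genes and 0.00 over the higher genes. This scale describes the libraries that chose the genes and is no test.

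**Figure D2:**
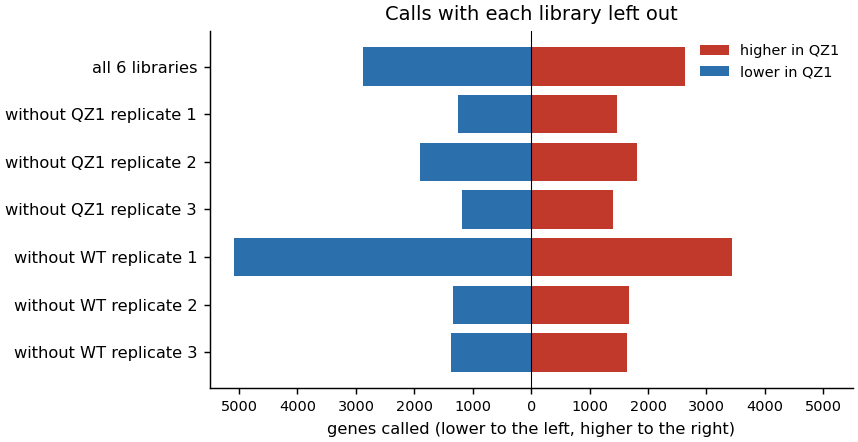
Number of genes called higher in QZ1 (red, to the right of 0) and lower (blue, to the left) with all 6 libraries and with each library left out. Leaving out WT replicate 1 gave the most calls, 3432 higher and 5084 lower, and each of the other 5 omissions gave fewer than the 2630 and 2873 of all libraries.

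Neither direction prevailed independently of scaling. The median log2 fold change over all genes tested was -0.095 as deposited and 0.006 after quantile normalization, a shift of 0.102. With that normalization the calls were 3149 higher and 2466 lower, and with median-of-ratios scaling 3014 and 2530. Rescaling to TPM gave 2477 higher and 3061 lower.

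The largest rise among genes called in every fit with a library left out was that of MD06G1081500, a gene of 894 bases on chromosome 6. It had 80.3, 98.5 and 63.8 FPKM in the QZ1 libraries and no read in any WT library. With a floor of 3 reads for the 3 WT libraries together, its 3890 reads in QZ1 made it at least 1211-fold higher. The fitted log2 fold change was 6.33 with an SE of 0.20, and the adjusted p by limma was 5.95e-05 (1.81e-05 to 0.0197 in the 18 alternatives). The gene had passed the filter through QZ1 only and so had to differ, and it was chosen by its size in these libraries. A1d replicate 3 had 65.4 FPKM of this gene, within the range of QZ1, and the other A1d libraries had none.

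MD05G1135300, a gene of 464 bases on chromosome 5, was even more uniform in QZ1. Its values there were 62.2, 59.2 and 60.2 FPKM, against 0.256, 0.13 and 0 in WT. The QZ1 libraries together held 1511 reads and the WT libraries 3, which per read of the library totals is a ratio of 470 (95% exact counting interval 161 to 2284). The log2 fold change of 5.78 had an SE of 0.17 and an adjusted p by limma of 5.95e-05, with 0.00791 the highest in any alternative. This gene also passed the filter through QZ1 only and so had to differ. Every QZ1 library lay far above every WT library, and the A1d libraries were spread between 13.5 and 72.7 FPKM. Counting intervals and floors cover counting error only, since reads made by PCR are not independent molecules.

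The largest fall by the same rule was that of MD12G1038300, a gene of 1664 bases on chromosome 12. WT replicates 1, 2 and 3 had 43.3, 240 and 253 FPKM, and the QZ1 libraries 3.53, 0.134 and 2.47. WT replicate 1 was the lowest of its group and still above every QZ1 library. The mean fell from 179 ± 118 to 2.05 ± 1.74 FPKM (SD, n = 3 each), a log2 fold change of -5.74 with an SE of 0.79. By limma the adjusted p was 0.00417, and the alternatives reached 0.0261 at most. The A1d libraries had 5.36, 2.12 and 3.63 FPKM, also below every WT library.

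MD09G1118100, a gene of 446 bases on chromosome 9, had 103, 66.3 and 16.2 FPKM in WT and 0, 0.125 and 0.374 in QZ1. Only 4 reads were found in the QZ1 libraries together, against 1389 in WT. WT was thus higher by a ratio of 372 (95% exact counting interval 145 to 1366). A log2 fold change of -5.42 was fitted, with an SE of 0.62 and an adjusted p by limma of 0.00212. In the alternatives this p lay between 0.00118 and 0.0574, the latter from limma voom on the recovered reads, which ended the call with a log2 fold change of -8.12. Here the WT libraries differed widely among themselves, with replicate 3 the lowest. The gene had passed the filter through WT only and so had to differ. A1d had 3.72, 17.5 and 13.7 FPKM, above every QZ1 library, and its replicate 2 lay within the range of WT.

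**Figure D3:**
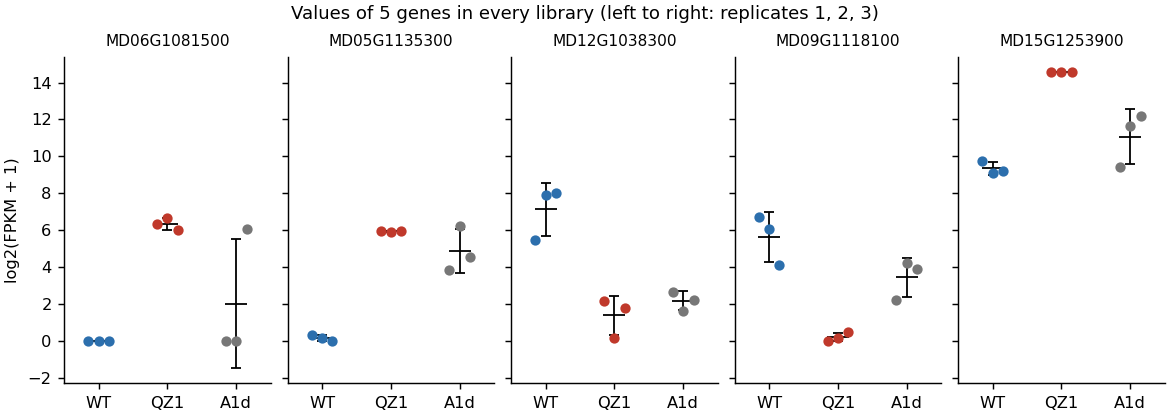
Values of 5 genes as log2(FPKM + 1) in each library, with replicates 1, 2 and 3 from left to right in each group, and the mean and SD of the 3 libraries in black. For every gene the QZ1 points (red) lie apart from the WT points (blue). The A1d points (grey), which were not in the main fit, fall at or between them in most libraries.

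Abundant transcripts that differed were mostly higher in QZ1. The gene that stood out was MD15G1253900, of 573 bases on chromosome 15, singled out after its values were seen. It had 24465, 24019 and 24202 FPKM in the QZ1 libraries, the highest value of any gene in each of them. In WT it had 869, 544 and 582 FPKM, and ranked 34, 51 and 43. The mean was thus 36.4 times that of WT, with 24229 ± 225 against 665 ± 178 FPKM (SD, n = 3 each). On the log2 scale it rose by 5.22 with an SE of 0.56, and limma gave an adjusted p of 0.00167, which ranged from 7.64e-05 to 0.059 in the alternatives. The call was lost with no filter on low genes (adjusted p = 0.059 by limma), where the fold change was also 5.22. This 1 gene took up 3.67 to 3.73% of the summed FPKM of a QZ1 library and 0.0857 to 0.135% of a WT library. A1d had 676, 3161 and 4689 FPKM, of which replicate 1 lay within the range of WT.

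Among the 100 genes with the highest mean FPKM over the 6 libraries, at least 393 FPKM, 21 were higher in QZ1 and 5 lower. These 21% and 5% stand beside 10.3% and 11.2% of all genes tested. Among the 20 most abundant 6 were higher and 0 lower, with log2 fold changes from 1.60 to 5.22. Without WT replicate 1, 37 of the 100 were higher and 9 lower. Of the 100, more were higher than lower under every scaling tried, with 21 and 7 in TPM, 21 and 5 with median-of-ratios scaling and 20 and 9 with quantile normalization. Without the intensity trend of the variance there were 27 and 8. Among the 20 most abundant, 9 were then higher and 1 lower, and with quantile normalization 5 were higher and 1 lower. Together the 2630 higher genes held 20.8, 20.2 and 20.2% of the summed FPKM in QZ1 and 7.27, 6.05 and 6.65% in WT. Without MD15G1253900 these shares were 16.4 to 17.1% in QZ1 and 5.96 to 7.14% in WT. The lower genes held 4.62 to 4.94% in QZ1 and 11.2 to 14% in WT. With the genes called without WT replicate 1, the higher genes held 28.8 to 29.9% in QZ1 and 10.7 to 15.4% in WT, and the lower genes 10.9 to 11.3% and 19.7 to 27.7%. Those shares describe the libraries by which the genes were called. FPKM is scaled to the total of each library, so these levels are relative to it.

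Low genes were called often, and mostly by way of the filter. In the decile of genes with the lowest mean level, 20.6% were higher and 14.7% lower, and without WT replicate 1 these were 15.4% and 20.9%, beside 13.4% and 19.9% of all genes tested. Most of these had passed the filter through 1 group only and so had to differ. In that decile 501 of the 526 higher genes had at least 1 FPKM in all 3 QZ1 libraries and in no WT library, and 353 of the 377 lower genes the reverse. Over all levels, 826 genes passed through QZ1 only, of which 751 were called, and 591 through WT only, of which 508 were called. Of the 24148 genes that reached 1 FPKM in at least 1 library of each group, 1879 (7.78%) were higher and 2365 (9.79%) lower. In the highest decile, with a median of 79.4 FPKM, 11.9% were higher and 8.33% lower. Without WT replicate 1 these shares of the highest decile were 21.4% and 18.3%.

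**Figure D4:**
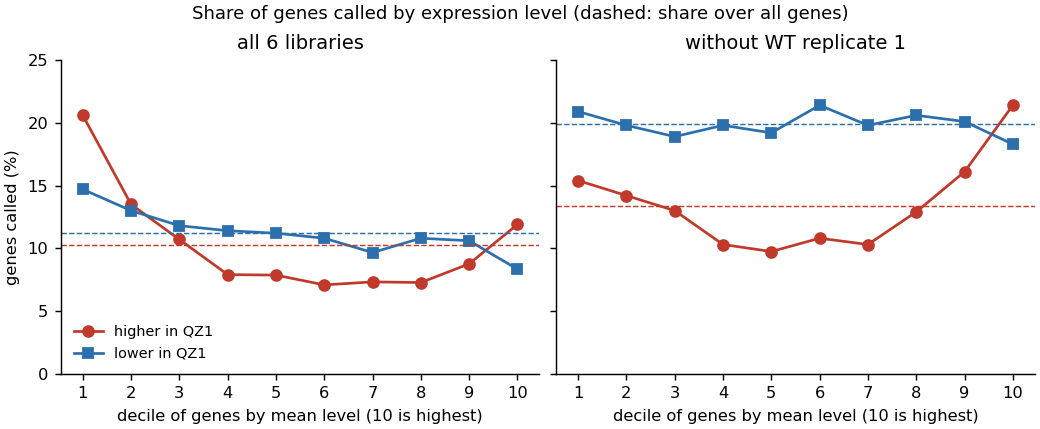
Percentage of genes called higher (red circles) and lower (blue squares) in QZ1 in each decile of genes by mean level, with all 6 libraries on the left and without WT replicate 1 on the right. Dashed lines are the shares over all genes tested, 10.3% and 11.2% on the left and 13.4% and 19.9% on the right; the share of higher genes is above its line in the highest decile of both panels, and in the lowest decile most calls passed the filter through 1 group only.

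Shorter genes were called more often in both directions. In the decile of shortest genes, 84 to 657 bases, 14.6% were higher and 16.1% lower. In the decile of longest genes, 3112 bases and over, these shares were 8.57% and 7.4%. The median log2 fold change was -0.17 in the shortest decile and -0.03 in the longest. Without WT replicate 1 it was -0.17 and -0.06. The part of length in the calls was not tested.

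More genes were read in QZ1 without WT than the reverse. At least 1 FPKM in all 3 QZ1 libraries and no read in any WT library was found for 226 genes, 0.566% of the 39951 in the file. The converse held for 90 genes, 0.225%. Both lists were of modest level, with a median of 3.62 FPKM in QZ1 for the former and 3.61 FPKM in WT for the latter. In the QZ1 libraries together the 226 genes had 13 to 3890 reads, with a median of 176, and with the floor of 3 reads for WT they were at least 4.05-fold to at least 1211-fold higher. The 90 genes had 7 to 1850 reads in WT. Of the 226 genes 27 averaged at least 10 FPKM, and of the 90 genes 7 did. QZ1 libraries held more reads than WT libraries, and QZ1 alone has a father from Malus × domestica. The parts of depth and of sequence differences between the rootstocks in these counts were not tested. With a level under 0.1 FPKM in place of no read, the counts were 294 and 119. Leaving out each library in turn gave 245 to 295 and 101 to 164 genes. Each of these settings loosens the rule, so neither count could fall. Leaving out QZ1 replicate 2 gave the converse count of 164. In each of these settings more genes were read in QZ1 alone than in WT alone.

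Genes of the QZ1 list were spread over all chromosomes. As a share of the genes in the file, they ran from 0.0907% on chromosome 17, with 2 genes, to 1.08% among the identifiers numbered 0, which have no chromosome, and 0.987% on chromosome 8, with 19 genes. Chromosome 17 held 9 genes of the WT list and was the only chromosome with more genes of the WT list than of the QZ1 list. On chromosome 13 both lists had 4 genes, and chromosome 10 had 10 of the QZ1 list and 1 of the WT list. The share of tested genes called higher ran from 8% on chromosome 10 and 8.06% on chromosome 17 to 13.2% on chromosome 8. The share called lower ran from 8.69% on chromosome 3 to 12.7% on chromosome 2. When WT replicate 1 was left out, the former ran from 10.9% on chromosome 17 to 16.1% on chromosome 8, and the latter from 14.6% on chromosome 3 to 22.4% on chromosome 4. Every chromosome thus held calls in both directions, and over all genes tested the shares were 10.3% and 11.2%.

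Calls of the same direction sat next to each other in places. Taking tested genes in the order of their identifiers, 37 runs of at least 4 neighbours were higher in QZ1 and 25 lower. They held 172 of the 2630 higher genes and 115 of the 2873 lower genes. There were 44 and 64 such runs without WT replicate 1. In that fit 13.4% of genes tested were higher and 19.9% lower, against 10.3% and 11.2% with all 6 libraries. Whether there are more runs than these shares alone would give was not tested. The 4 longest were singled out after their values were seen. A run on chromosome 6, from MD06G1154300 to MD06G1157200, had 10 tested genes of 23 in the file, all higher in QZ1. All 10 had passed the filter through QZ1 only, with under 1 FPKM in every WT library, and so had to differ. Their median was 2.62, 3.54 and 2.21 FPKM in the QZ1 libraries and 0 in each WT library, where 6 of the 10 had no read. Log2 fold changes ran from 1.49 to 4.97 (largest limma adjusted p = 0.0107). A1d replicate 3 had a median of 2.41 FPKM over these genes, near the level of QZ1, while A1d replicates 1 and 2 had 0 and 0.0576.

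A run on chromosome 11, from MD11G1101700 to MD11G1105900, had 10 tested genes of 37 in the file. All were higher in QZ1, with log2 fold changes from 1.19 to 5.31 (largest limma adjusted p = 0.0206), but 7 of the 10 had passed the filter through QZ1 only and so had to differ. Their medians were 2.96, 3.24 and 3.78 FPKM in QZ1 and 0.0234, 0 and 0 in WT. In A1d the medians were 0, 1.6 and 2.21 FPKM. The run on chromosome 5, from MD05G1052900 to MD05G1054000, had 8 tested genes of 11. There the rises were alike, from 1.47 to 2.36 log2 units (largest limma adjusted p = 0.0304), with medians of 3.38, 5.97 and 3.77 FPKM in QZ1 and 0.818, 0.696 and 0.456 in WT. Of these 8 genes 4 had passed the filter through QZ1 only. A1d had medians of 3.87, 1.49 and 4.65 FPKM, of which those of replicates 1 and 3 lay within the range of QZ1.

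The longest run of lower genes lay on chromosome 10, from MD10G1333000 to MD10G1334700, with 9 tested genes of 15. Their medians were 5.41, 16.1 and 11.5 FPKM in WT and 0.0707, 2.27 and 0.492 in QZ1. Log2 fold changes ran from -4.96 to -0.91 (largest limma adjusted p = 0.0375). WT replicate 1 was the lowest of the WT libraries and QZ1 replicate 2 the highest of the QZ1 libraries, without overlap of these medians. Of the 9 genes 3 had passed the filter through WT only, and the A1d medians were 4.25, 0.533 and 0.981 FPKM. All genes of these 4 runs were also called without WT replicate 1. Neighbouring genes can be near-identical copies whose reads the counting may have divided, and whether these are copies is not known from the file.

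**Figure D5:**
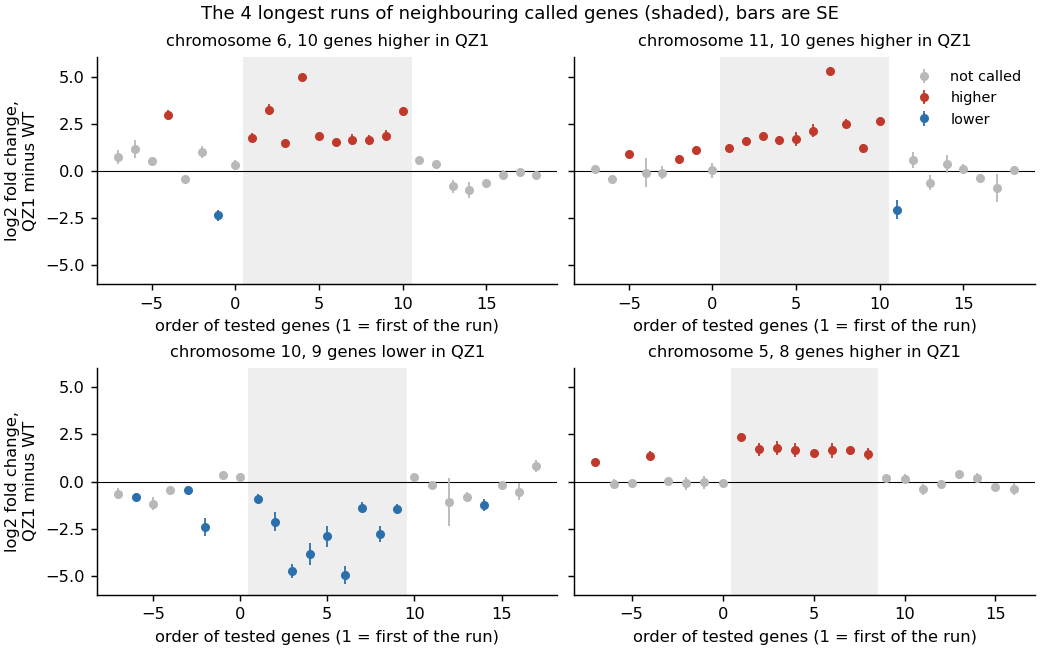
Log2 fold change of QZ1 against WT, with its SE, for the tested genes of the 4 longest runs of neighbouring calls (shaded) and up to 8 tested genes on either side, in the order of their identifiers. Red points are called higher, blue lower and grey not called. By the choice of runs all points within a shaded run lie on 1 side of 0. Points outside lie on both sides, and some are called, such as those at 2.97 and -2.34 beside the run on chromosome 6 and at -2.40 beside that on chromosome 10.

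Some large differences did not pass the test. Of 298 genes with a log2 fold change of at least 3 in either direction, 15 were not called, and the values of QZ1 and WT overlapped at 10 of them. At a log2 fold change of at least 1, 1245 of 4970 genes (25.1%) were not called, and 757 of these overlapped. Most of all genes tested overlapped too, as 19.2% did not overlap with QZ1 above WT and 22.1% with QZ1 below it. The SD was larger in WT than in QZ1 at 792 of the 1245 genes and smaller at 453. Over all genes tested the median SD was also larger in WT, 0.293 log2 units against 0.209 in QZ1. Whether the 1245 genes go beyond that difference was not tested. MD13G1200100, chosen after its values were seen, is the clearest case. It had 2505, 848 and 3833 FPKM in QZ1 and 528, 25.2 and 1.57 in WT. Its groups did not overlap, and the third WT value was far below the first. The log2 fold change of 5.94 ± 1.76 (SE) had an adjusted p of 0.0539 by limma, which in the alternatives lay between 0.00343 and 0.158. Without WT replicate 1 the log2 fold change was 7.94 and the adjusted p by limma 0.0047.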

How the data were processed

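Polyadenylated RNA of phloem was sequenced from stranded libraries, per the labels' protocols. The authors deposited FPKM per gene and library, a unit taken from the title of their table. Trimmomatic is named in the submitters' processing notes; aligner, counter, genome build and annotation were not given in the sources used here, and the effect of sequence differences between the rootstocks on the reads counted was not tested. Whole reads, library totals and gene lengths were recovered from the steps of the FPKM values, and all 37548 genes above 0 gave whole numbers in each library, to a tolerance of 0.001 reads beyond rounding.

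Genes with at least 1 FPKM in at least 3 of the 6 libraries were tested as log2(FPKM + 1), a scale that understates changes of low genes, with limma 3.58.1 in R 4.3.3. The fit had group means, empirical Bayes moderation with an intensity trend, and Benjamini-Hochberg adjustment over all genes tested. Recovery and fit were tested on simulated data. Tables were made in Python 3.11.15 with numpy 2.4.6 and pandas 2.3.3, figures with matplotlib 3.10.9.

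Genes named by rule were the 2 largest rises and 2 largest falls among called genes whose groups did not overlap and that were called with each library left out in turn; other genes and runs are marked as chosen after their values were seen. The comparison, its rules and the alternatives were chosen with earlier results of these data known. The planned gene lists could not be used, since no table pairs the identifiers with names. The alternatives were other pseudocounts, filters, scalings, thresholds and weights, all 9 libraries, voom on recovered reads, a replicate block, and each library left out. No libraries held identical values.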

Additional observations from a re-analysis of the deposited data

Results flagged for a closer look

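The A1d libraries were not in the main fit, yet held reads of genes found in QZ1 and not in WT. Of those 226 genes, 29 had at least 1 FPKM in A1d replicate 1, 42 in A1d replicate 2 and 137 in A1d replicate 3, where WT had no read by the choice of the genes. The shares were 12.8, 18.6 and 60.6%, and 40 of the 226 genes had no read in any A1d library. Of all 39951 genes in the file, 20734, 23800 and 24676 had at least 1 FPKM in A1d replicates 1, 2 and 3. The share in A1d replicate 3 is thus near that over all genes, and those in A1d replicates 1 and 2 are below it. Of the 90 genes found in WT and not in QZ1, 16, 33 and 37 had at least 1 FPKM in A1d replicates 1, 2 and 3. These are 17.8, 36.7 and 41.1%, below the share over all genes in each library.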

How the results depend on the processing

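Against 5503 calls, 2630 higher and 2873 lower, the counts of all, higher and lower genes were 2803, 1379 and 1424 with all 9 libraries in the fit, 1451, 872 and 579 when tested against 1.5-fold, 9951, 4063 and 5888 with library weights (0.282 for WT replicate 1), and 1934, 1123 and 811 at an adjusted p under 0.01. A minimum of 5 FPKM left 1711 higher genes, where fewer were tested. Leaving out each library in turn gave 2574 to 8516 calls, 1398 to 3432 higher and 1176 to 5084 lower. With a minimum of 5 FPKM, 49 genes were read in QZ1 and not in WT, and 18 the reverse. With a library left out these were 245 to 295 and 101 to 164, counts that could not fall below 226 and 90. The replicate number as a block gave 3340 calls, 1674 higher and 1666 lower. Deviations of same-numbered libraries correlated at -0.18, -0.03 and -0.17, and no library correlated best with its own number. Deviations within a group cancel out, so these values cannot show whether same-numbered libraries shared a batch. The cause of these shifts was not tested. In the 18 alternatives fitted over genes 0 of the 5503 calls turned direction. This was largely fixed, since leaving out a library cannot turn genes whose groups do not overlap. The fits with all 9 libraries, no intensity trend or a replicate block kept the fold changes of the main fit.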
